A study of Mus musculus with 8 samples.

Results

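The autophagy and lysosome genes described here are 37 genes of the deposited liver count table, chosen by symbol, out of 55335 genes in all. All 37 were found, and all 37 were among the 15234 genes kept by the filter on low counts. Liver RNA was sequenced from 8 female mice on the NIAAA chronic-plus-binge ethanol model, a liquid ethanol diet followed by an ethanol gavage. Mice 28, 34, 37 and 39 carried a hepatocyte-specific deletion of Ripk1 (Ripk1-hepKO), and mice 29, 32, 40 and 41 were Ripk1-Con controls, so every mouse of both groups had received ethanol. Each library came from a different animal. The Cre driver, the alleles of the controls and the age of the mice are not stated in the labels used here. Animals that received no ethanol are not analysed here. RIPK1 is a kinase and scaffold of signalling complexes below death receptors.

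Macroautophagy encloses cytoplasm, damaged organelles and lipid in a double membrane, the autophagosome, which then fuses with a lysosome. The ULK kinases start the process, the PI3-kinase complex of Beclin 1 and VPS34 marks the membrane, and conjugating enzymes attach ATG8 proteins (the LC3 and GABARAP families) to it. Receptors such as p62 tie cargo to the ATG8 proteins, and lysosomal hydrolases digest what arrives. TFEB and TFE3 are transcription factors that bind a short palindrome, the CLEAR element, in front of many lysosomal genes. In hepatocytes this route removes lipid droplets, protein aggregates and mitochondria, and ethanol is known to alter it. Messenger RNA levels do not measure the flow of cargo through the pathway.

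The core of the CLEAR element is the hexamer CACGTG, and TCACGTGA is the same core with its preferred flanks. Promoters of 29 of the 37 genes were listed by RefSeq on GRCm38.p6, as 300 bases from 250 before to 50 after a transcription start. Of these 29 genes, 11 (37.9%) had CACGTG in at least 1 listed promoter, against 8.09% of 27025 genes with a promoter and 11.5% of the 10772 of them that were tested here. TCACGTGA, which always contains CACGTG, stood in the promoters of 4 of the 29 genes (13.8%), against 1.12% and 2.10%. Both motifs read the same on either strand. By role, CACGTG stood in 2 of 3 lysosomal membrane genes, 4 of 7 genes of the lysosomal lumen, 3 of 4 conjugation genes, 1 of 5 receptor and mitophagy genes, 1 of 4 initiation genes, 0 of 4 ATG8 genes and 0 of 2 genes of the regulators. These are matches of letters in a window and not measured binding sites. The start of some matching windows lay away from the 5' end of the GENCODE gene, by 27999 bases for Atg7 and 2215 for Atg14. For Ctsa the match stood only in the listed promoter farther from that end, at 900 bases.

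The 5 promoters below are shown here because they carry the motif in lysosomal and conjugation genes, or because they belong to the genes whose groups did not overlap (Atg3 and Lipa). Capitals mark CACGTG or, where its flanks match, TCACGTGA, and each sequence is the gene's own strand from RefSeq on GRCm38.p6.
Lamp1, chr8:13158911-13159210, plus strand: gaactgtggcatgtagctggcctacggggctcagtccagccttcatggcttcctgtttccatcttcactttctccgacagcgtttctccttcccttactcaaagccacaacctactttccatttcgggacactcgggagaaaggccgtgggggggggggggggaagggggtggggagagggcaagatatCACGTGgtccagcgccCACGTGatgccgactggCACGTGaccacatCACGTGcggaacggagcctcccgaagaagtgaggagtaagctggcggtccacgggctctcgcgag
Mcoln1, chr8:3500269-3500568, plus strand: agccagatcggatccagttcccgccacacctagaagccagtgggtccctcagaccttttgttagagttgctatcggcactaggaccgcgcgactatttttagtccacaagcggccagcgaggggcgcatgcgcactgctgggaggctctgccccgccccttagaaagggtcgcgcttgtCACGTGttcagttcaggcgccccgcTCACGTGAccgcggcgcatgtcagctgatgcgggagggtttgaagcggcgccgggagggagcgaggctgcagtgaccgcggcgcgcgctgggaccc
Ctsd, chr7:142387778-142388077, minus strand: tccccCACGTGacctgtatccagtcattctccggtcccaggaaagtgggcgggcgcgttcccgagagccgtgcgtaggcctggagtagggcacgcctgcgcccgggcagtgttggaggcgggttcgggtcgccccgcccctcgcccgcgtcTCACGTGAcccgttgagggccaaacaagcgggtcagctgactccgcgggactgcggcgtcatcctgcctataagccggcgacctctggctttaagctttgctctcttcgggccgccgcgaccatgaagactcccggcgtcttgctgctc
Atg3, chr16:45158579-45158878, plus strand: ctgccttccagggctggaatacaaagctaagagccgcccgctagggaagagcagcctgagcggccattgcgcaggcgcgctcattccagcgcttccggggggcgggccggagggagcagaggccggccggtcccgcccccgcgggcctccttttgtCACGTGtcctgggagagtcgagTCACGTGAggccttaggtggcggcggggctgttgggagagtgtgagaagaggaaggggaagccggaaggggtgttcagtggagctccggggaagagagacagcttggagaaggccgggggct
Lipa, chr19:34527425-34527724, minus strand: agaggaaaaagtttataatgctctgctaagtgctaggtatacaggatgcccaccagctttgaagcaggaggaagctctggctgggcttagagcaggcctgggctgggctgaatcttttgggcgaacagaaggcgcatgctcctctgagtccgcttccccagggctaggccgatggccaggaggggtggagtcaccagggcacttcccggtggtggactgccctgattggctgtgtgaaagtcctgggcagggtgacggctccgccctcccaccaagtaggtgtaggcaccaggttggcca
Lamp1 held 4 copies of CACGTG, at -61, -45, -28 and -15 from the start. Mcoln1 held CACGTG at -71 and TCACGTGA at -46, Ctsd CACGTG at -245 and TCACGTGA at -99, and Atg3 CACGTG at -94 and TCACGTGA at -72, each position being the first base of the match. The Lipa window held no match, which says only that these letters are not in it.

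Levels are given as CPM, the count scaled to library size by TMM, and were compared between genes per kilobase of merged exons. Total counts per library ran from 28038390 (Ripk1-Con mouse 40) to 67328158 (Ripk1-Con mouse 32). The lowest count of any of the 37 genes in any library was 125 (Tfeb). Sqstm1 (p62) had the highest level, 247 CPM per kilobase as the mean of the 8 mice, followed by Lamp1 at 224, Ctsl at 190.1 and Ctsd at 149. The range of Sqstm1 over the mice (157 to 344) covered that of Lamp1 (199 to 248), and Ctsl (111 to 316) overlapped both, so the order of these 3 was not fixed beyond the spread. Tfeb was the lowest at 0.921 CPM per kilobase, and its range of 0.404 to 1.36 lay below that of every other gene of the list. Among the ATG8 genes, Gabarapl1 (114) and Gabarap (97.1) stood far above Map1lc3a (13.5), Gabarapl2 (12.4) and Map1lc3b (12.3). The order within these sets depended on the length used. Per kilobase of the longest annotated transcript, Gabarap (132) exceeded Gabarapl1 (126), and Map1lc3b (22.3) exceeded Gabarapl2 (17.2) and Map1lc3a (14.3). With that length, 28 of the 37 levels moved by at least their SD over the mice, while Sqstm1, Lamp1, Ctsl and Ctsd kept their ranks.

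Ripk1-hepKO mouse 28 had a mean Spearman correlation of 0.954 with the other libraries, against 0.974 to 0.980 for the remaining 7. Mouse 28 was the highest of the 8 mice for 8 of the 37 genes (21.6%) and the lowest for 9 (24.3%), against 26.3% and 26.8% of all genes tested. Other mice held more of the extremes among the 37 genes than among all genes tested. Ripk1-hepKO mouse 39 was the lowest for 9 (24.3%, against 8.24%), Ripk1-hepKO mouse 37 the highest for 9 (24.3%, against 10.4%), and Ripk1-Con mouse 32 the highest for 10 (27.0%, against 11.9%). These shares are a description with no test. The targeted gene, Ripk1, stood at 23.1 to 38.1 CPM in Ripk1-hepKO and 27.8 to 53.6 CPM in Ripk1-Con, so its count does not check the labels, on which every direction here rests, and the deleted exons are not stated in the labels used here. Hepatocyte markers were high in all 8 libraries, and of 4 muscle and pancreas markers Ckm, Myh4 and Prss2 were at 0 in all of them. The other marker, Cela1, stood at 2.45 to 4.77 CPM in Ripk1-hepKO and 2.80 to 3.92 CPM in Ripk1-Con.

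**Figure D1:**
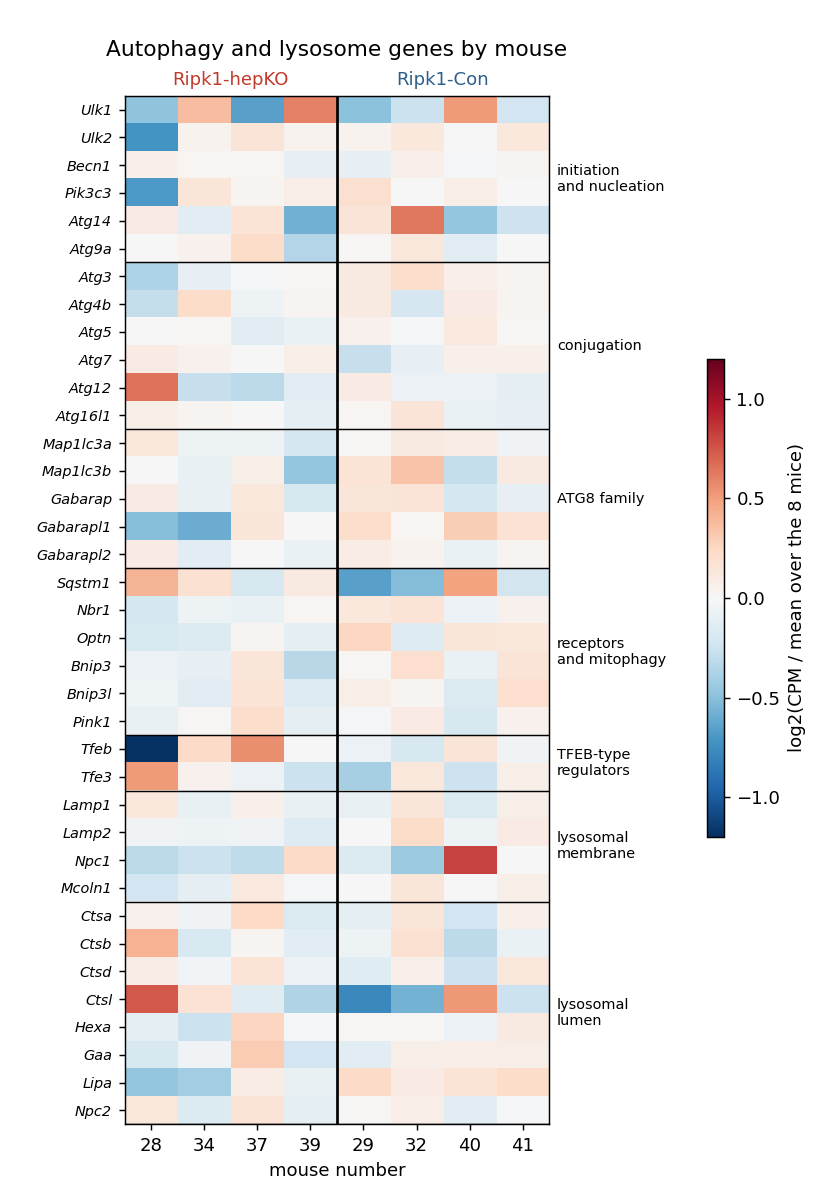
Each row is 1 gene and each column 1 mouse, and the colour is the log2 of its CPM over the mean of the 8 mice, with Ripk1-hepKO mice left of the line. Most rows are pale, and the rows with the strongest colours include Ulk1, Sqstm1, Npc1, Ctsl and Tfeb, which ran from 2.29 to 7.71 CPM within Ripk1-hepKO.

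No gene of the autophagosome, the receptors, the TFEB-type regulators or the lysosome passed the test between Ripk1-hepKO and Ripk1-Con livers. By edgeR's quasi-likelihood test, 0 of the 37 genes had an adjusted p under 0.05 (lowest adjusted p = 0.742), against 0.00% of the 15234 genes tested. Without adjustment, 1 of the 37 (Lipa) had a p under 0.05, against 6.68% of all genes tested (3.86% higher and 2.82% lower in Ripk1-hepKO), and the DESeq2 Wald test, which called 0.237% of genes, called 0 of the 37. The median log2 ratio of Ripk1-hepKO over Ripk1-Con (the fitted log2 fold change) across the 37 genes was -0.04, with 14 above 0 and 23 below, against 0.01 and 51.8% above 0 over all genes tested. Of the 37 genes, 5 (Gabarapl1, Lipa, Npc1, Sqstm1 and Ctsl) had an absolute log2 ratio over 0.25, against 35.8% of all genes tested and 23.2% of those with a mean of at least 10 CPM.

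The intervals give the size of difference that these 8 mice leave possible. For 28 of the 37 genes the 95% confidence interval of the ratio lay wholly within 1.5-fold of the control level in either direction, and for 36 within 2-fold. Of the genes tested with a mean of at least 10 CPM, 67.1% and 89.3% had intervals within these limits. The exception to 2-fold was Ctsl, with an interval from 76.5% to 209.8% of that level. Among the narrowest intervals were those of Becn1 (88.0% to 115%) and Atg5 (82.5% to 107%).

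**Figure D2:**
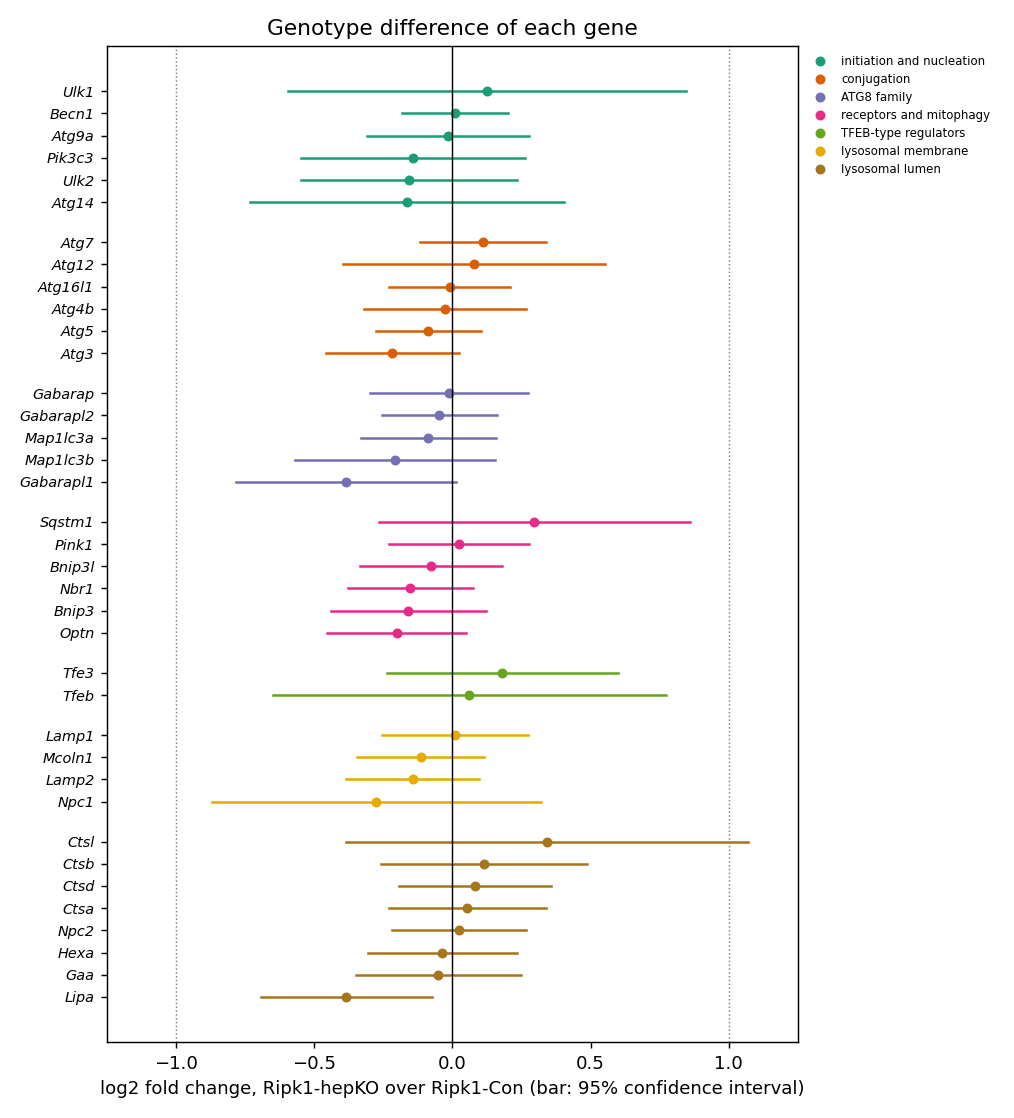
Points are log2 ratios of Ripk1-hepKO over Ripk1-Con by edgeR's quasi-likelihood test, bars are 95% confidence intervals, colours are roles, and dotted lines mark 2-fold. The Lipa bar is the only one that does not reach 0, and the Ctsl bar is the only one that crosses a dotted line.

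None of the genes that start the autophagosome passed the test. Of the 6 genes of initiation and nucleation, 2 lay above 0 and 4 below, with a median log2 ratio of -0.08. Becn1, which encodes Beclin 1, stood at 51.4, 50.01, 50.2 and 46.0 CPM in livers 28, 34, 37 and 39 of Ripk1-hepKO, and 46.0, 51.3, 48.8 and 50.2 CPM in livers 29, 32, 40 and 41 of Ripk1-Con. Lists of values for single mice keep this order of mice from here on. The groups covered the same narrow range, and the log2 ratio was 0.01 ± 0.09 (SE; edgeR adjusted p = 0.990). Ulk1, the kinase that starts autophagy, varied widely within both groups, with 61.2, 110.4, 54.5 and 130.2 CPM in Ripk1-hepKO and 60.8, 71.4, 122 and 72.7 CPM in Ripk1-Con. Ripk1-hepKO mice 34 and 39 and Ripk1-Con mouse 40 were high, and the log2 ratio of 0.12 ± 0.32 became -0.12 without mouse 39 and 0.39 without mouse 40.

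The remaining initiation genes overlapped between the groups. Ulk2, a second ULK kinase, averaged 41.7 ± 10.03 CPM in Ripk1-hepKO and 46.5 ± 2.07 CPM in Ripk1-Con (SD, n = 4 each). Pik3c3, the lipid kinase VPS34, averaged 13.9 ± 3.27 CPM in Ripk1-hepKO and 15.3 ± 0.993 CPM in Ripk1-Con. Both had their lowest value in mouse 28, at 26.9 and 9.04 CPM, and their log2 ratios of -0.16 and -0.14 were 0.01 and 0.02 without that mouse. Atg14, which directs the PI3-kinase complex to autophagosomes, stood between 11.4 and 19.0 CPM in Ripk1-hepKO and between 12.3 and 26.2 CPM in Ripk1-Con. Atg9a, a membrane protein that supplies the growing autophagosome, averaged 41.5 ± 6.57 CPM in Ripk1-hepKO and 41.9 ± 3.25 CPM in Ripk1-Con.

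Among the enzymes that conjugate ATG8 proteins to lipid, Atg3 was the gene whose groups did not overlap. Atg3 encodes the E2-like enzyme that transfers ATG8 proteins to phosphatidylethanolamine (ENSMUSG00000022663, chromosome 16, 45158785 to 45188538 on GRCm38). It stood at 50.5, 61.0, 64.3 and 65.8 CPM in Ripk1-hepKO and at 70.3, 75.5, 68.0 and 66.9 CPM in Ripk1-Con. Every Ripk1-hepKO mouse lay below every control, the nearest pair being mouse 39 at 65.8 CPM and mouse 41 at 66.9 CPM. The log2 ratio was -0.22 ± 0.11 (SE; edgeR adjusted p = 0.762), and -0.14 without mouse 28. Groups did not overlap for 2 of the 37 genes, both lower in Ripk1-hepKO, against 4.10% of all genes tested (2.01% higher and 2.09% lower).

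The other 5 conjugation genes had log2 ratios between -0.09 and 0.11. Atg5 averaged 39.5 ± 1.91 CPM in Ripk1-hepKO and 42.0 ± 1.74 CPM in Ripk1-Con, and Atg16l1, its partner in the E3-like complex, 32.6 ± 1.83 CPM in Ripk1-hepKO and 32.8 ± 2.73 CPM in Ripk1-Con. Atg7, the E1-like enzyme, averaged 33.3 ± 0.901 CPM in Ripk1-hepKO and 30.9 ± 3.31 CPM in Ripk1-Con. Atg4b, the protease that trims ATG8 proteins, averaged 22.8 ± 3.26 CPM in Ripk1-hepKO and 23.2 ± 2.24 CPM in Ripk1-Con. Atg12, which is joined to ATG5, stood at 45.1, 23.7, 22.9 and 26.1 CPM in Ripk1-hepKO and 30.6, 27.3, 27.3 and 26.4 CPM in Ripk1-Con. Mouse 28 alone was high, the other 3 Ripk1-hepKO mice were lower than every control, and the log2 ratio of 0.08 became -0.20 without mouse 28.

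All 5 ATG8 genes had a log2 ratio below 0, with a median of -0.09, and none passed the test. The ratio nearest 0 was that of Gabarap, -0.01 ± 0.13 (SE), which lay above 0 in 4 of the 8 fits that left out 1 mouse. Gabarapl1 differed most. It stood at 161, 152, 254 and 229.9 CPM in livers 28, 34, 37 and 39 of Ripk1-hepKO, and 265, 234, 282 and 259 CPM in livers 29, 32, 40 and 41 of Ripk1-Con. Mice 28 and 34 lay far below every control, while mouse 37 exceeded mouse 32, so the groups overlapped. The log2 ratio was -0.39 ± 0.18 (SE; edgeR adjusted p = 0.750, unadjusted p = 0.0561). It was -0.29 without mouse 28 and -0.25 without mice 28 and 40. The 2 low mice, 28 and 34, were also the 2 lowest for Lipa, described further on.

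The other ATG8 genes differed less. Map1lc3b, which encodes LC3B, averaged 85.6 ± 13.1 CPM in Ripk1-hepKO and 98.8 ± 17.2 CPM in Ripk1-Con. Gabarap averaged 178 ± 19.1 CPM in Ripk1-hepKO and 179.7 ± 22.6 CPM in Ripk1-Con, and Gabarapl2 averaged 28.3 ± 1.97 CPM in Ripk1-hepKO and 29.3 ± 1.385 CPM in Ripk1-Con. Map1lc3a averaged 15.5 ± 1.45 CPM in Ripk1-hepKO and 16.4 ± 0.759 CPM in Ripk1-Con. As a mean of log2(CPM + 1) over the 5 genes, Ripk1-hepKO stood at 6.08 ± 0.12 and Ripk1-Con at 6.24 ± 0.08 (SD, n = 4 each). Single mice ran from 5.98 to 6.23 in Ripk1-hepKO and from 6.13 to 6.31 in Ripk1-Con, so the groups overlapped. The difference of -0.15 was the largest of the 7 roles, the others running from -0.11 (lysosomal membrane) to 0.07 (regulators).

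Of the 6 receptor and mitophagy genes, Sqstm1 and Pink1 lay above 0 and 4 below, with a median log2 ratio of -0.11. Sqstm1 encodes p62, which binds ubiquitinated cargo and is itself consumed by autophagy (ENSMUSG00000015837, chromosome 11, 50199366 to 50210827). It stood at 1101, 938, 724 and 892 CPM in Ripk1-hepKO, and at 528, 579.5, 1156 and 713 CPM in Ripk1-Con. Every Ripk1-hepKO mouse exceeded control mice 29, 32 and 41, but control mouse 40 had the highest value of all. The log2 ratio was 0.30 ± 0.25 (SE; edgeR adjusted p = 0.826), 0.60 without mouse 40 and 0.16 without mouse 29. Nbr1, a second ubiquitin-binding receptor, averaged 180.3 ± 11.9 CPM in Ripk1-hepKO and 200.4 ± 14.1 CPM in Ripk1-Con. Optn, the receptor optineurin, averaged 83.1 ± 5.68 CPM in Ripk1-hepKO and 95.6 ± 11.1 CPM in Ripk1-Con, a log2 ratio of -0.20 ± 0.11 (edgeR adjusted p = 0.770).

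The 3 mitophagy genes did not pass the test. Bnip3, a receptor on mitochondria that hypoxia induces, stood at 136, 134, 158 and 113 CPM in Ripk1-hepKO and 144, 165, 136 and 159 CPM in Ripk1-Con. Its relative Bnip3l (NIX) averaged 64.8 ± 6.81 CPM in Ripk1-hepKO and 68.4 ± 7.12 CPM in Ripk1-Con. Pink1, the kinase that labels damaged mitochondria, averaged 103 ± 11.1 CPM in Ripk1-hepKO and 101 ± 8.65 CPM in Ripk1-Con. All 3 overlapped between the groups.

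The regulators Tfeb and Tfe3, at 0.921 and 3.91 CPM per kilobase over the 8 mice, overlapped between the genotypes. Tfeb stood at 2.29, 6.11, 7.71 and 5.23 CPM in Ripk1-hepKO and at 4.96, 4.57, 5.81 and 5.08 CPM in Ripk1-Con. The control mice fell within a narrow range, while mouse 28 lay below and mouse 37 above all of them. The log2 ratio was 0.06 ± 0.32 (SE; edgeR adjusted p = 0.978), with an interval from 63.7% to 171%. Tfe3 stood at 51.6, 37.5, 34.4 and 30.3 CPM in Ripk1-hepKO and at 27.5, 39.7, 30.5 and 38.0 CPM in Ripk1-Con. Mouse 28 held the highest Tfe3 and the lowest Tfeb value, and without it and mouse 40 the Tfe3 log2 ratio of 0.18 was -0.04.

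Of the 4 lysosomal membrane genes, Lamp1 lay above 0 and 3 below, with a median log2 ratio of -0.13. Lamp1, a major glycoprotein of the lysosomal membrane, stood at 654, 564, 626 and 564 CPM in Ripk1-hepKO and 565, 663, 533 and 632 CPM in Ripk1-Con. The groups spanned almost the same range, and the interval of the ratio was 83.8% to 121%. Lamp2 averaged 534 ± 19.6 CPM in Ripk1-hepKO and 589.7 ± 51.2 CPM in Ripk1-Con, and Mcoln1, a calcium channel of lysosomes, 28.9 ± 2.98 CPM in Ripk1-hepKO and 31.3 ± 1.48 CPM in Ripk1-Con. Npc1, which moves cholesterol out of lysosomes, stood at 109.8, 115, 111 and 160.4 CPM in Ripk1-hepKO and 123, 101, 241 and 136 CPM in Ripk1-Con. Control mouse 40 stood far above the rest, and the log2 ratio of -0.28 ± 0.26 became 0.06 without it. Its partner in the lumen, Npc2, averaged 51.5 ± 5.90 CPM in Ripk1-hepKO and 50.6 ± 3.16 CPM in Ripk1-Con.

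Lipa had the lowest p of the 37 genes and was lower in each Ripk1-hepKO mouse than in each control. Lipa encodes lysosomal acid lipase, which hydrolyses cholesteryl esters and triglycerides that reach the lysosome (ENSMUSG00000024781, chromosome 19, 34492318 to 34527474, minus strand). It stood at 132, 136, 193 and 172 CPM in livers 28, 34, 37 and 39 of Ripk1-hepKO, and 213, 195, 205 and 213 CPM in livers 29, 32, 40 and 41 of Ripk1-Con. Mice 28 and 34 were well below the controls, and mouse 37 (193 CPM) lay just under mouse 32 (195 CPM). The means were 158 ± 29.4 CPM in Ripk1-hepKO and 206 ± 8.54 CPM in Ripk1-Con (SD, n = 4 each), a log2 ratio of -0.38 ± 0.14 (SE; edgeR adjusted p = 0.742, unadjusted p = 0.0208), with an interval of 61.8% to 95.1% of the control level before any adjustment. It was -0.31 without mouse 28 and between -0.49 and -0.31 when each mouse was left out in turn. The difference did not pass adjustment over all genes tested.

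Levels of cell type markers in the same libraries stand beside the Lipa values. The 8 hepatocyte markers summed to 67634 to 89142 CPM in Ripk1-hepKO and 95113 to 111661 CPM in Ripk1-Con, groups that did not overlap, and 7 of the 8 had a log2 ratio below 0. Albumin (Alb) made up 71.7% to 81.1% of the sum in each library. Without Alb, an exclusion chosen after its values were seen, the other 7 summed to 16903 to 21015 CPM in Ripk1-hepKO and 20686 to 24170 CPM in Ripk1-Con, which overlapped. Of the 8 single markers, the groups did not overlap for Alb and Ttr, against 4.10% of all genes tested in either direction. For the directions of the markers in this paragraph, 51.8% of all genes tested had a log2 ratio above 0. The 7 Kupffer cell markers, 6 of 7 above 0, summed to 208 to 315 CPM in Ripk1-hepKO and 85.01 to 367 CPM in Ripk1-Con. Monocyte and macrophage markers, 8 of 8 above 0, summed to 75.2 to 181 CPM in Ripk1-hepKO and 38.1 to 130.3 CPM in Ripk1-Con, and the 7 stellate cell markers, 7 of 7 above 0, to 98.9 to 179 CPM in Ripk1-hepKO and 79.2 to 113 CPM in Ripk1-Con. No marker of these 4 lists was at 0. Mouse 28 had the lowest hepatocyte sum (67634 CPM) and the highest sums of monocyte and macrophage (181 CPM) and stellate cell (179 CPM) markers. Of the markers tested in the other lists, 4 of 4 for neutrophils, 4 of 4 for cholangiocytes and 4 of 5 for endothelial cells lay above 0. So did 3 of 4 for T and NK cells and 1 of 2 for B cells. The part of these cell types in the Lipa difference was not tested. In bulk liver, fewer cells of a type and less RNA per cell cannot be told apart.

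The 7 other genes of the lysosomal lumen did not separate the genotypes. Ctsl, the cysteine protease cathepsin L (ENSMUSG00000021477, chromosome 13, 64359337 to 64370890), stood at 2053, 1388, 1114 and 963 CPM in Ripk1-hepKO and 723, 832, 1765 and 1034 CPM in Ripk1-Con. Ripk1-hepKO mouse 28 and Ripk1-Con mouse 40 were high, and the log2 ratio of 0.34 ± 0.32 (SE; edgeR adjusted p = 0.846) was 0.09 without mouse 28 and 0.68 without mouse 40. Ctsl and Sqstm1 shared their extremes, with mice 28 and 40 the highest and mice 29 and 32 the lowest for both. Mouse 40 also had the lowest summed Kupffer cell marker level of the 8 mice, 85.01 CPM, and the highest Npc1 and Gabarapl1.

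The remaining hydrolases overlapped between the groups. Ctsb, a cysteine protease, averaged 603 ± 121 CPM in Ripk1-hepKO and 557 ± 77.2 CPM in Ripk1-Con, with 776 CPM in mouse 28 and a log2 ratio of 0.11 that was -0.03 without it. Ctsd, an aspartyl protease, averaged 361 ± 28.04 CPM in Ripk1-hepKO and 342 ± 41.8 CPM in Ripk1-Con. Ctsa, a carboxypeptidase that protects other lysosomal enzymes, averaged 155 ± 18.5 CPM in Ripk1-hepKO and 149 ± 17.4 CPM in Ripk1-Con. Hexa, a subunit of beta-hexosaminidase, averaged 66.9 ± 10.3 CPM in Ripk1-hepKO and 68.7 ± 3.43 CPM in Ripk1-Con. Gaa, which degrades glycogen in lysosomes, averaged 72.7 ± 12.9 CPM in Ripk1-hepKO and 75.3 ± 5.12 CPM in Ripk1-Con. Mouse 37 was the highest of the 8 mice for 5 of the 8 lumenal genes, namely Ctsa, Ctsd, Hexa, Gaa and Npc2.

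**Figure D3:**
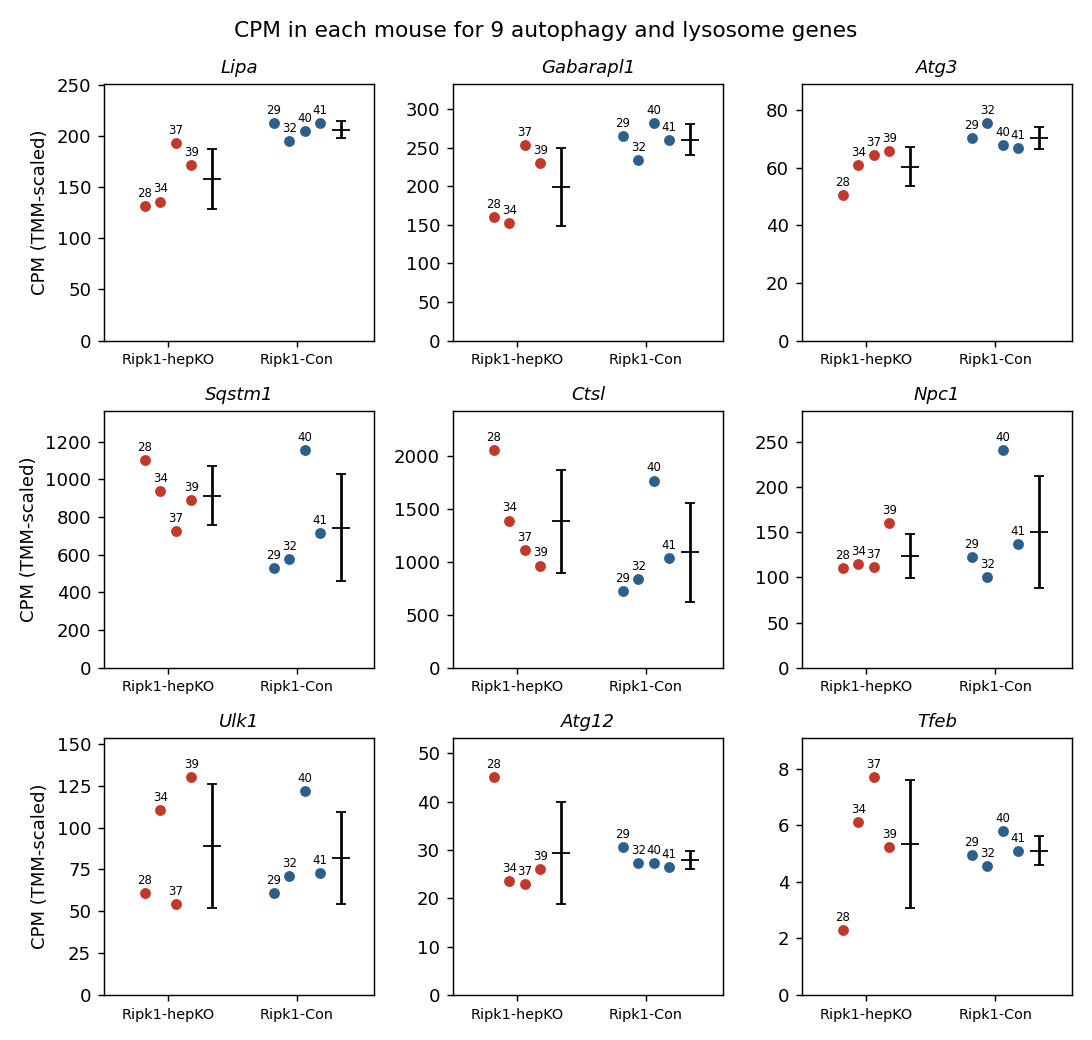
CPM of 9 genes in each mouse, numbered by mouse, with the group mean and SD (n = 4) as a bar to the right and Ripk1-hepKO left of Ripk1-Con. For Lipa and Atg3 all Ripk1-hepKO points lie under all Ripk1-Con points, while in Sqstm1 and Ctsl mouse 40 stands with or above the highest Ripk1-hepKO mice.

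The spread between mice was uneven across the list. The coefficient of variation over the 8 mice had a median of 11.3% for the 37 genes, against 14.7% for genes tested with a mean of at least 10 CPM. The highest value exceeded the lowest by more than 2-fold for 6 genes (Tfeb, Ctsl, Ulk1, Npc1, Atg14 and Sqstm1), which is 16.2% of the list, against 24.3% of genes with at least 10 CPM. The libraries were made strand-specific by the dUTP method, per the labels' protocols, but how the counting used strand is not stated in the labels used here, so reads of overlapping genes may be split. The largest shares were 43.9% of the exon bases of Becn1 with Cntd1 on the opposite strand, 34.4% of Ctsd with Gm49369 on the same strand, 31.8% of Atg9a with Gm29253 on the same strand, and 28.3% of Gabarapl1 with 1700101I11Rik on the opposite strand. Ctsl shared 26.8% with the antisense gene Gm47123 and 6.09% with the pseudogene Gm49230.

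Other genes of the pathway, taken from 7 further lists, were compared in the same fit. Across these lists 0 genes passed in either direction by edgeR or DESeq2, against 0.00% and 0.237% of all genes tested. As edgeR passed no gene at all, its 0 says nothing particular to these lists. Without adjustment, edgeR gave a p under 0.05 for 3 of the 35 hydrolases (8.57%) and 3 of the 9 hypoxia targets (33.3%), all higher in Ripk1-hepKO, against 3.86% higher over all genes tested. In each of the other 5 lists it did so for at most 2 genes, against 6.68% of all genes tested in either direction. The 28 other autophagosome genes had 15 above 0 and a median log2 ratio of 0.00, the 18 other receptors 11 above 0 and 0.04, the 16 subunits of the vacuolar ATPase 10 above 0 and 0.02, and the 22 other lysosomal membrane and sorting genes 12 above 0 and 0.04. The 35 other lysosomal hydrolases had 25 above 0 and a median of 0.06, against 51.8% above 0 and a median of 0.01 over all genes tested. Of the 29 genes of mTORC1, AMPK and TFEB control, 28 were tested, with 14 above 0 and 14 below.

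Genes of lowest p within those lists are named here, and none passed. Tsc1, which restrains mTORC1, stood at 21.5, 17.9, 22.4 and 19.96 CPM in Ripk1-hepKO and 25.7, 25.8, 23.6 and 27.7 CPM in Ripk1-Con, without overlap (log2 ratio -0.33 ± 0.11 SE; edgeR adjusted p = 0.742). Zkscan3, known as a repressor of autophagy genes, averaged 47.7 ± 17.0 CPM in Ripk1-hepKO and 69.7 ± 14.3 CPM in Ripk1-Con. Atp6v0a1, a membrane subunit of the proton pump, averaged 60.7 ± 6.90 CPM in Ripk1-hepKO and 46.4 ± 7.08 CPM in Ripk1-Con, and Atp6v0e 33.9 ± 5.48 CPM in Ripk1-hepKO and 29.5 ± 2.14 CPM in Ripk1-Con. Naglu, a glucosaminidase, averaged 17.3 ± 2.13 CPM in Ripk1-hepKO and 13.6 ± 1.37 CPM in Ripk1-Con, without overlap. Groups did not overlap for 1 of the 28 tested genes of mTORC1, AMPK and TFEB control and 3 of the 35 hydrolases. The same held for 1 of the 28 autophagosome genes, 2 of the 22 membrane and sorting genes and 1 of the 9 hypoxia targets. The receptors and the vacuolar ATPase had 0 such genes, against 4.10% of all genes tested. Snap29, a SNARE of autophagosome fusion, averaged 22.3 ± 3.13 CPM in Ripk1-hepKO and 28.7 ± 3.92 CPM in Ripk1-Con, and Wdfy3, an adaptor for aggregates, 55.8 ± 5.12 CPM in Ripk1-hepKO and 68.4 ± 9.35 CPM in Ripk1-Con.

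The remaining named genes stood at low levels, and mouse 28 was far above the other mice for Atg16l2 and Cd63. Atg16l2, a relative of Atg16l1, stood at 32.1, 14.7, 9.25 and 11.01 CPM in Ripk1-hepKO and 6.93, 7.95, 9.90 and 7.48 CPM in Ripk1-Con, and its log2 ratio of 1.06 was 0.53 without mouse 28. Cd63, a tetraspanin of late endosomes, stood at 20.3 CPM in mouse 28 and 4.51 to 6.55 CPM in the other Ripk1-hepKO mice, against 3.27 to 5.39 CPM in Ripk1-Con, and its log2 ratio of 1.10 was 0.37 without mouse 28. Slc38a9, an amino acid sensor of the lysosome, averaged 10.9 ± 0.823 CPM in Ripk1-hepKO and 12.8 ± 0.553 CPM in Ripk1-Con.

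Targets of hypoxia-inducible factors, the family of regulators that also induces Bnip3, were taken as a comparison for that receptor. Of 10 such genes 9 were tested, 5 lay above 0 and 4 below, and the median log2 ratio was 0.43, with 0.17 when mouse 28 was left out. In the alternatives other than leaving out 1 mouse, this median ran from 0.13 to 0.45. Pfkfb3, a glycolytic regulator, averaged 11.4 ± 1.89 CPM in Ripk1-hepKO and 8.09 ± 1.28 CPM in Ripk1-Con, without overlap, and Egln3, an oxygen sensor, 13.4 ± 3.22 CPM in Ripk1-hepKO and 9.54 ± 1.66 CPM in Ripk1-Con (edgeR adjusted p = 0.742 each). Bnip3 itself had a log2 ratio of -0.16 ± 0.12 (edgeR adjusted p = 0.815).

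**Figure D4:**
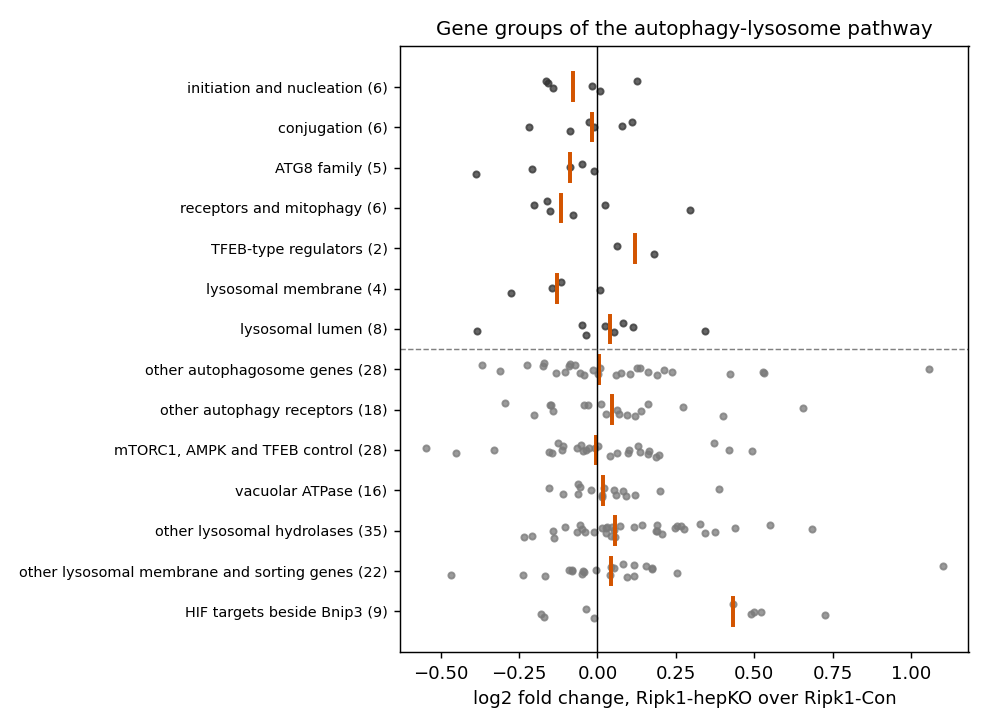
Each point is the log2 ratio of 1 gene, Ripk1-hepKO over Ripk1-Con, orange bars are medians, and numbers in brackets count the genes tested. The 7 roles of the list above the dashed line and 6 of the 7 further lists below it have medians between -0.13 and 0.12. The targets of hypoxia-inducible factors have a median of 0.43, with 5 of 9 above 0, against 51.8% of all genes tested.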

How the data were processed

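RNA of 8 livers was measured by strand-specific poly(A) sequencing, and the authors deposited 1 table of raw counts per gene. Per the submitters' processing notes, the build was GRCm38.p6; listed there without roles are DESeq2 (1.38.1), StringTie (2.2.1), STAR (2.5.2b) and FastQC (0.11.5). The program and strand setting that made the counts are not given in the sources used here. Groups came from the sample titles, with 4 mice each. Gene IDs were given GENCODE M21 symbols (55154 matched, 181 did not). Genes were filtered with filterByExpr, scaled by TMM and tested with edgeR 4.0.16 (quasi-likelihood, robust) in R 4.3.3, with Benjamini-Hochberg adjustment over all 15234 genes tested and a threshold of 0.05. The fit was also run on simulated data with planted changes, a check whose outcome is not reported here. Alternatives were DESeq2 1.42.0, limma 3.58.1 (voom, with and without quality weights), other scalings and filters, and leaving out mice. The 37 genes, the pathway lists and the cell type markers were chosen with earlier results of these data known. In each further pathway list, the 2 genes of lowest p were to be named, and 2 genes chosen by this rule are not reported here. Intervals are those of the edgeR fit and are not adjusted.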

Additional observations from a re-analysis of the deposited data

Results flagged for a closer look

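Within each group of 4 mice, the highest or lowest mouse of a gene was set against the other 3 by Dixon's test. Of 74 such groups, 4 had a mouse standing apart, and chance flags about 1 group in 20. Ulk2 in Ripk1-hepKO mouse 28 stood at 26.9 CPM, against 45.4 to 49.1 CPM in the other 3 Ripk1-hepKO mice. Atg12 in Ripk1-hepKO mouse 28 stood at 45.1 CPM, against 22.9 to 26.1 CPM. Npc1 in Ripk1-hepKO mouse 39 stood at 160.4 CPM, against 109.8 to 115 CPM. Gaa in Ripk1-Con mouse 29 stood at 67.6 CPM, against 77.7 to 78.1 CPM in the other 3 Ripk1-Con mice.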

How the results depend on the processing

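No paired analysis was possible because no mouse number is shared between the groups. Under the 17 alternatives, 0 of the 37 genes were called, the lowest adjusted p was 0.416 (Lipa, DESeq2 Wald test), 17 genes kept their direction in every alternative and 20 turned in at least 1. Among all genes tested, the DESeq2 Wald test called 36, 14 higher and 22 lower in Ripk1-hepKO, against 0 by the main edgeR fit. The other 16 alternatives also called 0 genes in all, so their 0 among the 37 says nothing particular to these genes. Genes with an unadjusted edgeR p under 0.05 numbered 1017. The edgeR alternatives ran from 633, when control mouse 29 was left out, to 1451 without mice 28 and 40. The other values given here are log2 ratios of Ripk1-hepKO over Ripk1-Con. The median of the conjugation genes ran from -0.069 to 0.00223 and that of the receptors from -0.155 to -0.059 when each mouse was left out, and the conjugation median was -0.070 without mice 28 and 40. The genes that turned were Atg9a 0.016, Atg4b 0.00756, Atg16l1 0.024, Gabarap 0.023 and Hexa 0.00251 with library size alone, Atg16l1 0.00218 and Gabarap 0.000463 with no filter, Tfeb -0.088 with voom, Becn1 -0.00441, Atg4b 0.039, Atg12 -0.14, Lamp1 -0.042, Ctsb -0.010 and Npc2 -0.043 with voom and quality weights, and Becn1 -0.014, Pik3c3 0.020, Atg4b 0.082, Atg12 -0.21, Pink1 -0.000342, Tfe3 -0.043, Lamp1 -0.085, Npc1 0.10, Ctsa -0.015, Ctsb -0.11, Gaa 0.019 and Npc2 -0.058 without mice 28 and 40. With each mouse left out in turn, the genes that turned had these ranges: Ulk1 -0.12 to 0.39, Ulk2 -0.24 to 0.00504, Becn1 -0.020 to 0.046, Pik3c3 -0.22 to 0.018, Atg14 -0.30 to 0.080, Atg9a -0.096 to 0.086, Atg4b -0.11 to 0.055, Atg12 -0.20 to 0.19, Atg16l1 -0.042 to 0.046, Gabarap -0.070 to 0.050, Pink1 -0.047 to 0.068, Tfeb -0.17 to 0.32, Lamp1 -0.034 to 0.062, Npc1 -0.43 to 0.056, Ctsa -0.017 to 0.12, Ctsb -0.031 to 0.20, Hexa -0.14 to 0.040, Gaa -0.17 to 0.015, Npc2 -0.023 to 0.084 and Ripk1 -0.32 to 0.019. These settings differ in the mice, genes or weights used, and the cause of a turn was not tested. With 4 mice a group, the intervals in the text limit what could be seen.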
